A study of Mus musculus with 22 samples.

Results

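The 10 genes described here help to decide whether a mouse oocyte lives or dies. They are the checkpoint kinases Atm, Chek1 and Chek2, the transcription factor Trp63 and the pro-apoptotic BCL2-family genes Pmaip1, Bbc3 and Bax. The others are the family members Bcl2l10, Mcl1 and Bcl2, grouped here as protective. The 10 genes come from the 52636 genes of the deposited table and were chosen by gene symbol. Pmaip1 rose in all 4 groups of oocytes that were homozygous for a Dicer mutation, with fitted folds of 9.55 to 14.6, and Trp63 rose in 3 of the 4, by 1.26 to 1.41-fold, where 2 of the 3 calls were lost when single libraries were left out. Atm rose in Dicer SOM/SOM oocytes of 1 sequencing run. The other genes did not pass the test in any comparison.

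Germinal vesicle (GV) oocytes are fully grown oocytes that are still arrested before the first meiotic division. In 11 single-end libraries without an age in their labels, the genotypes were wild type (Dicer-WT/WT, n = 3), Dicer ΔMT/WT (n = 1), Dicer ΔMT/ΔMT (n = 4) and Dicer SOM/SOM (n = 3). In 11 paired-end libraries each female carried at least 1 Dicer SOM and 1 Mili DAH allele, so that the controls, heterozygous for both (Dicer-SOM/WT with Mili-DAH/WT, n = 4, aged 36, 38, 10 and 17 weeks), were not wild type. They were set against RNAi mutants, which were Dicer-SOM/SOM with Mili-DAH/WT (n = 2, 17 and 13 weeks), a piRNA mutant, which was Dicer-SOM/WT with Mili-DAH/DAH (n = 1, 16 weeks), and double mutants homozygous for both alleles, Dicer-SOM/SOM with Mili-DAH/DAH (n = 4, 40, 35, 11 and 11 weeks). All were females described as C57BL/6. The ΔMT allele lacks the retrotransposon-derived promoter of the short oocyte form of Dicer, the SOM allele lacks the introns in which the short forms start and carries an HA tag, and the DAH allele makes a catalytically dead MILI. Each library was made from a pool of oocytes. The SOM allele was made in cultured embryonic stem cells, and the line goes back to a single founder that was crossed on the C57BL/6 background. The methods speak of superovulated and of unstimulated females, and the labels do not say which library came from which. They also give an age range for collecting oocytes, and several of the labelled ages lie outside it.

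The p63 protein of the oocyte, TAp63α, is held inactive during the dormant life of the follicle. After DNA breaks, ATM and CHK2, or CHK1, lead to its phosphorylation, and active p63 turns on Bbc3 and Pmaip1, whose products PUMA and NOXA bind and block protective BCL2-family proteins. BAX and BAK then open the outer mitochondrial membrane. NOXA binds chiefly MCL1, and loss of p63, or of PUMA with NOXA, protects oocytes from radiation. Expression tables measure none of the phosphorylation steps.

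In other tissues, miRNAs, which Dicer cuts from their precursors, are known to bind some of these messages, and the best-known pairs are shown here because the mutations lie in Dicer. The paper proposes that the little full-length Dicer left in Dicer SOM/SOM oocytes still supports the making of miRNAs, though not efficient RNAi. A loss of miRNAs in these mutants is therefore not assumed here. Mature miRNAs are from RefSeq (GRCm38.p6), 5′ to 3′, with the seed, bases 2 to 8, in capitals. They are miR-203-3p (chr12:112130927-112130948, plus strand) for Trp63, miR-29a-3p (chr6:31062673-31062694, minus strand) for Mcl1, miR-15a-5p (chr14:61632075-61632096, minus strand) and miR-16-5p (here from Mir16-2, chr3:69009918-69009939, plus strand) for Bcl2, and miR-221-3p (chrX:19146307-19146329, minus strand) and miR-222-3p (chrX:19146901-19146923, minus strand) for Bbc3.
miR-203-3p: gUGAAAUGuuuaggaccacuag
miR-29a-3p: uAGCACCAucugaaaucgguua
miR-15a-5p: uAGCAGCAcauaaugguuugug
miR-16-5p: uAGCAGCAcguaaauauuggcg
miR-221-3p: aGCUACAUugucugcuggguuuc
miR-222-3p: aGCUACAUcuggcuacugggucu
The pair of miR-15a and miR-16 shares a seed, and so does the pair of miR-221 and miR-222.

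In the longest annotated 3′ UTR of each of these genes (GENCODE M21, GRCm38) the reverse complement of the seed occurred 1 time, on the transcribed strand, and it is printed in capitals. The Trp63 site lies at base 2522 of a UTR of 3064 bases (chr16:25891534-25891562, plus strand), the Mcl1 site at base 1036 of 2353 (chr3:95661848-95661876, plus strand), the Bcl2 site at base 2459 of 5086 (chr1:106540788-106540816, minus strand) and the Bbc3 site at base 97 of 971 (chr7:16317320-16317348, plus strand).
Trp63: ggactctgtggCATTTCAgcactatttag
Mcl1: agtcttaaccaTGGTGCTattcactgggt
Bcl2: aagaaaccctgTGCTGCTatcctgccaag
Bbc3: ttttctgcaccATGTAGCatactggactg
Such matches are common: of 20999 genes with a 3′ UTR, 16.1% held CATTTCA, 13.1% TGGTGCT, 20.3% TGCTGCT and 9.46% ATGTAGC. A match is a description of the letters and not evidence of a working site, and miRNAs were not measured in these libraries. Of these 4 genes, Trp63 passed the test in 3 comparisons, Mcl1 and Bcl2 in none, and Bbc3 was too low to be tested. None of the 10 genes is among the 197 genes that the study lists as targets of endogenous siRNAs.

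Total counts were 6468380 to 90713013 per single-end library, with Dicer SOM/SOM replicate 3 the lowest, and 22928936 to 43540806 per paired-end library. Values are CPM, counts scaled to library size with TMM factors, and 3 counts, taken as the limit of detection, are 0.0352 to 0.431 CPM in the single-end and 0.0677 to 0.130 CPM in the paired-end libraries. All 12 oocyte markers were detected in every library, with a summed level of 12090 to 15440 CPM. The 14 markers of granulosa and cumulus cells summed to 39.3 to 92.1 CPM. The 12 leukocyte markers summed to 90.4 to 229 CPM, nearly all from Ms4a1, Ighm and Ighg1, with Igkc at 0 in all 22 libraries and Ptprc at 0 in 12. The 9 stroma, theca and endothelium markers summed to 50.4 to 83.3 CPM, nearly all from Pecam1 (median 65.9 CPM). The 5 erythroid markers summed to 0.423 to 2.67 CPM. The leukocyte sum was 193 to 205 CPM in wild type and 90.4 to 141 CPM in Dicer SOM/SOM, without overlap, and its part in the results was not tested. Dicer1 followed the labels. Its level was 1014 ± 29.7 CPM in wild type (SD, n = 3), 486 ± 44.8 in Dicer ΔMT/ΔMT (n = 4) and 49.4 ± 6.87 in Dicer SOM/SOM (n = 3), and 639 ± 110 in controls (n = 4), 57.9 ± 5.86 in RNAi mutants (n = 2) and 57.6 ± 3.24 in double mutants (n = 4). Paired-end libraries of a group differ in the age of the females and so came from different females, except the 2 double mutants of 11 weeks, which may or may not have. For the single-end libraries the labels do not say whether they came from separate animals, and the p-values there measure the spread between libraries, which may be technical. In pooled oocytes, fewer oocytes that make a transcript and less transcript in each cannot be told apart.

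Scaled to exon length, Bcl2l10 stood far above the other genes: 748 ± 58.4 CPM per kb in wild type (SD, n = 3) and 655 ± 173 in controls (n = 4), which is rank 30 of 23151 and rank 30 of 20989 genes tested. Its product, also called DIVA or BOO, is a BCL2-family protein known from the ovary. Of the summed length-scaled level of Bcl2l10, Mcl1 and Bcl2, Bcl2l10 made up 97.73% to 99.45% in each of the 22 libraries. This sum leaves out BCL2-family genes outside the set described here. Among them, Bcl2l1 was at 82.1 CPM in wild type, where Mcl1 was at 18.9 CPM.

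Chek1 followed with 133 ± 3.66 CPM per kb in wild type and 141 ± 16.7 in controls, which is above 98.4% of the genes tested in each run. Trp63 was next with 12.1 ± 1.46 CPM per kb in wild type and 10.8 ± 1.29 in controls. The other kinases of the checkpoint were low, with Atm at 1.80 ± 0.116 and Chek2 at 0.961 ± 0.143 CPM per kb in wild type.

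Mcl1 followed with 5.53 ± 1.65 CPM per kb in wild type and 6.94 ± 2.40 in controls. Bax (2.43 ± 0.992), Atm and Chek2 followed in wild type, and the ranges of Bax and Atm overlapped there, so that their order is not resolved. Bcl2 (0.176 ± 0.0529) and Pmaip1 (0.0989 ± 0.0156) were lowest in wild type and did not overlap by a small margin, while in controls Pmaip1 at 0.172 ± 0.122 and Bcl2 at 0.122 ± 0.0435 CPM per kb overlapped. Bbc3 had at most 3 counts in any library and was at 0 counts in 16 of the 22.

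**Figure D1:**
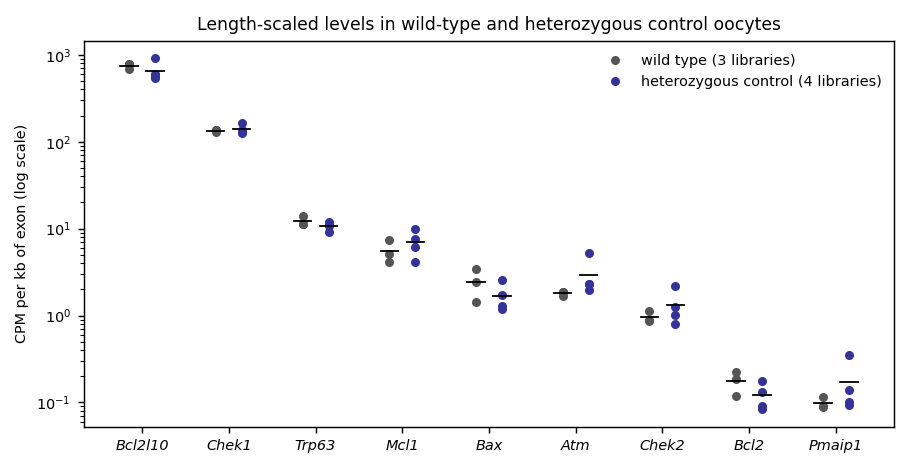
CPM per kb of exon on a log axis for the 9 tested genes in wild-type (grey, 3 libraries) and heterozygous control oocytes (blue, 4 libraries); points are libraries and short lines are means. Bcl2l10 lies between 541 and 912 CPM per kb in every library shown, and Pmaip1 between 0.0894 and 0.352.

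Pmaip1 (ENSMUSG00000024521.7, on chromosome 18) encodes NOXA, a BH3-only protein that marks MCL1 for destruction. Wild-type libraries held 0.236, 0.239 and 0.309 CPM of it, from 14 to 19 counts. Dicer ΔMT/ΔMT libraries held 4.27, 4.96, 3.13 and 1.55 CPM and Dicer SOM/SOM libraries 2.02, 4.07 and 3.74 CPM. Every library of both mutant groups lay above every wild-type library, and the mutant groups overlapped each other.

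The fitted log2 fold change of Pmaip1 was 3.71 ± 0.44 (SE) in Dicer ΔMT/ΔMT against wild type (13.1-fold, adjusted p = 3.10e-04) and 3.61 ± 0.47 in Dicer SOM/SOM (12.25-fold, adjusted p = 2.11e-04). The 26 counts of Dicer SOM/SOM replicate 3 are few, and without that library the call stayed: over all libraries left out in turn the adjusted p was at most 0.00184. Both comparisons use the same wild-type libraries. Between Dicer SOM/SOM and Dicer ΔMT/ΔMT the difference was -0.10 (95% interval -0.91 to 0.71, adjusted p = 0.919), an interval that still allows sizeable differences in either direction.

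In the paired-end run, controls held 0.369, 0.933, 0.250 and 0.272 CPM of Pmaip1, the RNAi mutants 6.09 and 7.19 CPM, and the double mutants 3.40, 2.57, 7.71 and 3.72 CPM. Again no mutant library fell into the control range. This is a log2 fold change of 3.87 ± 0.49 in RNAi mutants (14.6-fold, adjusted p = 1.52e-04) and 3.26 ± 0.45 in double mutants (9.55-fold, adjusted p = 1.47e-04), against the same controls.

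Adding the Mili mutation to the Dicer mutation did not move Pmaip1 detectably: double against RNAi mutants gave -0.61 ± 0.46 (95% interval -1.59 to 0.37, adjusted p = 0.9997). The single piRNA mutant library, with functional Dicer from its wild-type allele, held 0.501 CPM of Pmaip1 from 18 counts, inside the range of the controls. The single Dicer ΔMT/WT library held 0.294 CPM, inside the wild-type range.

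Counts of Gm42418, an annotated gene that lies over ribosomal RNA sequence, split the paired-end libraries into a set at 4083 to 5500 CPM and a set at 294 to 557 CPM, and both RNAi mutants belong to the first set. Within the first set, Pmaip1 was 0.369 and 0.272 CPM in controls against 6.09 and 7.19 in RNAi and 3.40 and 7.71 in double mutants. Within the second set it was 0.933 and 0.250 CPM in controls against 2.57 and 3.72 in double mutants. The direction was the same in both sets, each of which holds few libraries of a group. In the single-end run, Dicer SOM/SOM replicates 1 and 3 stood out with 12710 and 17280 CPM of Gm42418, and replicate 2, at 4758 CPM, was close to the 5203 to 5777 CPM of wild type. That replicate, a single library, held 4.07 CPM of Pmaip1, 125 CPM of Trp63 and 28.2 CPM of Atm, each above all wild-type libraries. The cause of the differences in Gm42418, and its part in these values, was not tested.

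Set against Mcl1 in the same library, length-scaled Pmaip1 was 1.22% to 2.29% of Mcl1 in wild type and 1.04% to 5.77% in controls. It was 9.18% to 29.4% in Dicer ΔMT/ΔMT, 9.29% to 27.4% in Dicer SOM/SOM, 33.8% and 36.9% in RNAi mutants and 9.71% to 28.8% in double mutants. The ranges of mutants and their controls did not overlap in either run, and even the highest mutant value left Pmaip1 below Mcl1. By the same measure of likeness, Pmaip1 was closest to Zscan4d (Pearson r = 0.97), Mtif2 (0.96) and Lmx1a (0.96). Zscan4d belongs to a family of near-identical copies that share reads, so that its own level is uncertain.

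**Figure D2:**
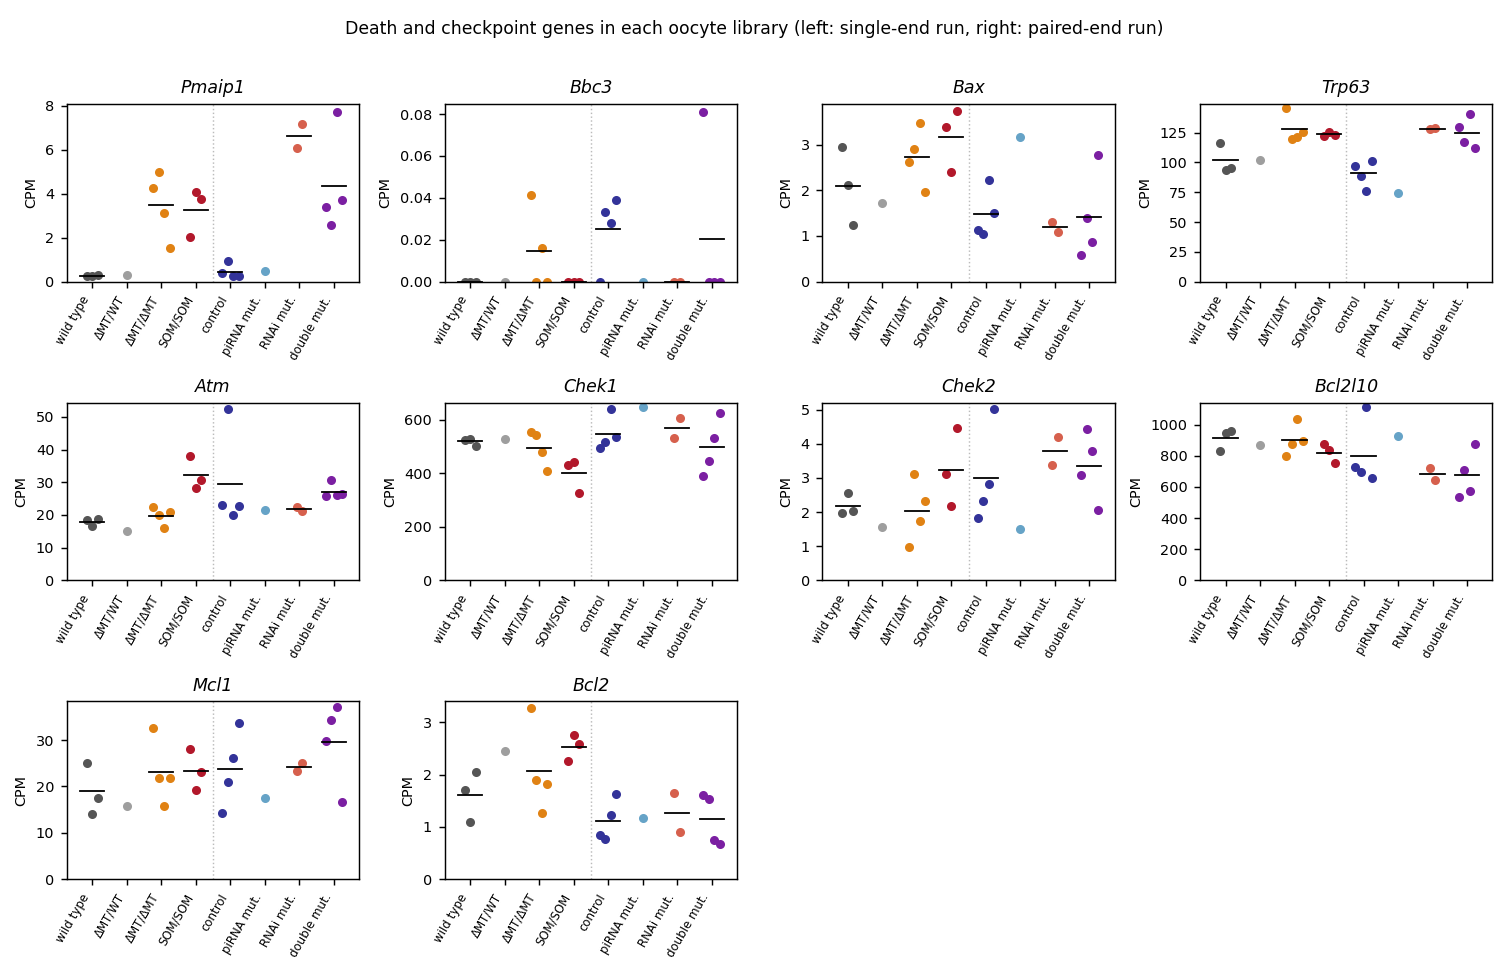
CPM of the 10 genes in all 22 libraries; each point is a library, lines are means of groups with 2 or more libraries, and the dotted line parts the single-end run (left) from the paired-end run (right). Pmaip1 is at 1.55 CPM or above in all 13 libraries homozygous for a Dicer mutation and at 0.933 or below in the other 9.

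Trp63 (ENSMUSG00000022510.14, GRCm38 chr16:25683763-25892102, plus strand) encodes p63, and the table does not separate its TA and ΔN forms. Wild-type libraries held 116, 93.9 and 95.7 CPM, Dicer ΔMT/ΔMT libraries 146, 120, 122 and 126 CPM and Dicer SOM/SOM libraries 123, 125 and 123 CPM. All mutant libraries lay above the highest wild-type library, whose 116 CPM was close to the lowest mutant.

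The log2 fold change of Trp63 in Dicer ΔMT/ΔMT was 0.33 ± 0.10 (1.26-fold, adjusted p = 0.0467), just past the threshold of 0.05. It passed when wild-type replicate 1 or Dicer SOM/SOM replicate 3 was left out and missed the threshold without any other of the 10 libraries, with adjusted p between 0.0277 and 0.161. In Dicer SOM/SOM it was 0.28 ± 0.11 (1.22-fold, adjusted p = 0.0678), which missed the threshold. It passed without wild-type replicate 1 (0.38, adjusted p = 0.0309), with library sizes unscaled (0.35, adjusted p = 0.0233) and with a mean of at least 1 CPM as filter (0.31, adjusted p = 0.0381). The groups did not differ detectably from each other (-0.05, 95% interval -0.26 to 0.17).

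Controls held 97.1, 88.8, 76.4 and 101 CPM of Trp63, RNAi mutants 128 and 129 CPM and double mutants 130, 117, 140 and 112 CPM. Neither mutant group overlapped the controls. This is a log2 fold change of 0.50 ± 0.15 in RNAi mutants (1.41-fold, adjusted p = 0.0449) and 0.46 ± 0.12 in double mutants (1.38-fold, adjusted p = 0.0156).

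The call in RNAi mutants was lost without either RNAi mutant, without control replicate 1, 2 or 3, or without double mutant replicate 1 or 2, with adjusted p up to 0.204. It was also lost with a term for Gm42418, where the log2 fold change was 0.38 and the adjusted p 0.06495. In double mutants the call held without each library in turn, with adjusted p of at most 0.0494, and was lost among females younger than 30 weeks, where 2 double mutants faced 2 controls (0.52, adjusted p = 0.153). Within the set of libraries high in Gm42418, Trp63 was 97.1 and 101 CPM in controls and 128 to 140 CPM in the mutants. Within the low set it was 88.8 and 76.4 CPM in controls and 117 and 112 CPM in double mutants. The piRNA mutant, at 74.3 CPM, lay below all controls. The genes whose pattern over the 22 libraries, each run centred on its own mean, was most like that of Trp63 were Plcb1 (Pearson r = 0.92), Gbp7 (0.92) and Ncor1 (0.91), of 14597 genes, and libraries of a group share their genotype.

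**Figure D3:**
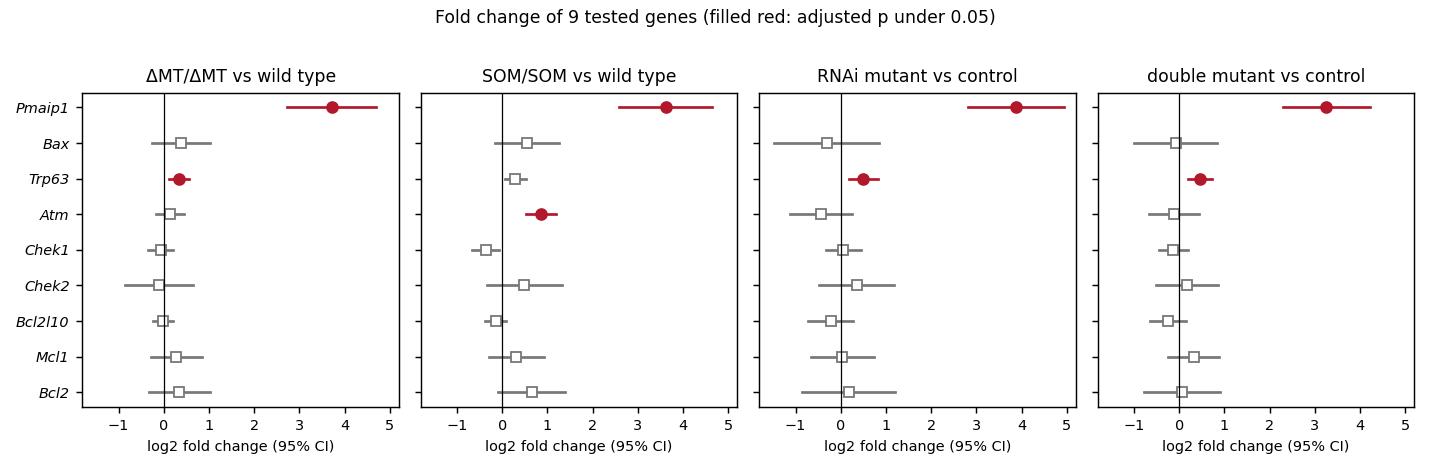
Fitted log2 fold change with 95% confidence interval of the 9 tested genes in 4 comparisons; filled red circles are adjusted p under 0.05 and open squares are not. Pmaip1 lies between 3.26 and 3.87 in all 4 panels, Trp63 between 0.28 and 0.50, and Atm is past the threshold in Dicer SOM/SOM against wild type.

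Atm (ENSMUSG00000034218.15, chr9:53439149-53536740, minus strand) encodes the kinase that senses DNA double-strand breaks. Wild-type libraries held 18.5, 16.7 and 18.8 CPM, Dicer ΔMT/ΔMT libraries 22.5, 20.02, 15.9 and 20.9 CPM and Dicer SOM/SOM libraries 38.0, 28.2 and 30.8 CPM. The Dicer SOM/SOM libraries lay above all others of that run. Their log2 fold change was 0.85 ± 0.15 against wild type (1.81-fold, adjusted p = 0.00181) and 0.71 ± 0.14 against Dicer ΔMT/ΔMT (1.64-fold, adjusted p = 0.0122). Both calls held without each library in turn, the second only just without Dicer SOM/SOM replicate 1 (0.57, adjusted p = 0.04997). In Dicer ΔMT/ΔMT, Atm was at 0.14 ± 0.14 (adjusted p = 0.554).

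In the paired-end run, with the same Dicer SOM/SOM genotype, Atm did not pass the test. Controls held 23.0, 52.5, 19.9 and 22.8 CPM of Atm, RNAi mutants 22.3 and 21.3 CPM and double mutants 25.7, 30.6, 26.0 and 26.3 CPM. Control replicate 2 stood far above the other controls. Atm differed by -0.44 ± 0.32 in RNAi mutants (adjusted p = 0.464) and -0.12 ± 0.26 in double mutants (adjusted p = 0.798) on the log2 scale, and without control replicate 2 by -0.01 and 0.31 (adjusted p = 0.988 and 0.164).

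Whether the Dicer SOM/SOM effect differed between the runs was tested in a joint fit of 21 libraries. For Atm the difference, Dicer SOM/SOM minus wild type less RNAi mutant minus control, was 1.26 ± 0.38 (adjusted p = 0.317), and it was 0.82 without control replicate 2 (adjusted p = 0.2545). None of the 9 tested genes passed that test by edgeR, in which 0.00806% of all genes passed in either direction. At an unadjusted p under 0.05, 1 of them passed, Atm, beside 8.94% of all genes, and DESeq2 called 0. The runs differ in sequencer, read length, control genotype and Mili genotype, which cannot be told apart here.

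Genes that followed Atm most closely over the 22 libraries were Hykk (Pearson r = 0.83), Pknox2 (0.83) and Cryzl2 (0.83), the highest of 14597 genes. These are descriptions, and libraries of a group share their genotype. Hykk lies 1.38 Mb and Pknox2 16.29 Mb from Atm on the same chromosome, at chr9:54917283-54949924 and chr9:36890982-37147407. Pknox2, a homeobox gene, was at 16.6, 12.5 and 24.0 CPM in the Dicer SOM/SOM libraries, at 34.3 CPM in control replicate 2 and at 13.8 CPM in double mutant replicate 1. It was at 1.08 CPM or less in the other 17 libraries. Of the 5 libraries with high Pknox2, 4 also had Atm above 28 CPM, and double mutant replicate 1 had 25.7 CPM. All 5 carry the SOM allele, as do others without high Pknox2. The part of this shared pattern in the Atm result was not tested, nor was the genetic background of the libraries on this chromosome.

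**Figure D4:**
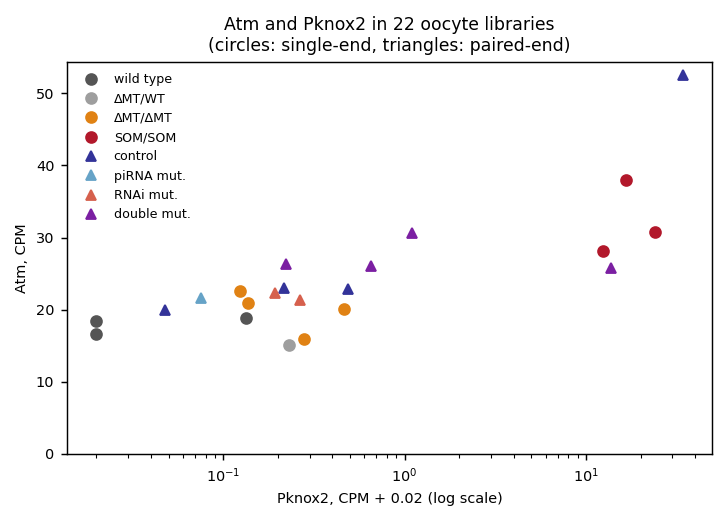
Atm CPM (vertical, linear axis) against Pknox2 CPM + 0.02 (horizontal, log axis) in 22 libraries; circles are single-end and triangles paired-end libraries, coloured by group. The 3 Dicer SOM/SOM libraries and control replicate 2, at 52.5 CPM of Atm, lie at the upper right, with double mutant replicate 1 to their lower edge.

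Chek1 (ENSMUSG00000032113.16, chr9:36708482-36726658, minus strand) encodes the kinase that restrains entry into division when replication or repair is unfinished. It was at 525, 530 and 503 CPM in wild type and 431, 444 and 326 CPM in Dicer SOM/SOM, without overlap, but its log2 fold change of -0.37 ± 0.14 missed the threshold (adjusted p = 0.0638). DESeq2 gave -0.38 (adjusted p = 0.0333), and it passed with a mean of at least 1 CPM as filter (adjusted p = 0.0465) or without Dicer ΔMT/ΔMT replicate 4 (adjusted p = 0.0441). Dicer ΔMT/ΔMT libraries held 554, 544, 481 and 407 CPM and overlapped wild type.

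In the paired-end run Chek1 was at 495, 517, 642 and 536 CPM in controls, 532 and 609 in RNAi mutants and 391, 448, 534 and 627 in double mutants, all overlapping. The 4 libraries of females older than 30 weeks held 391 to 517 CPM and the 7 younger ones 532 to 649 CPM, without overlap. The age term of the fit was -0.34 ± 0.12 (adjusted p = 0.681), so that age did not pass the test. Chek2 (ENSMUSG00000029521.7, chr5:110840000-110874145, plus strand), the kinase that activates p63 in damaged oocytes, was at 0.974 to 5.004 CPM over the 22 libraries and overlapped its controls in all 4 comparisons with mutants. Its log2 fold changes there were -0.10 to 0.49, with standard errors of 0.32 to 0.39.

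Bax (ENSMUSG00000003873.11, chr7:45461697-45466898, minus strand) encodes a pore former of the mitochondrial outer membrane. It was at 2.96, 2.12 and 1.24 CPM in wild type, 1.96 to 3.48 CPM in Dicer ΔMT/ΔMT and 2.40 to 3.74 CPM in Dicer SOM/SOM, and at 1.03 to 2.22 CPM in controls, 1.30 and 1.08 CPM in RNAi mutants and 0.593 to 2.77 CPM in double mutants. Every mutant group overlapped its controls. Its counts are uncertain, because 44.3% of its exon bases are also exon of the same-strand gene Gm45808 and the counting divides shared reads. Bbc3 (ENSMUSG00000002083.13, chr7:16309616-16318205, plus strand), which encodes PUMA, had 0 counts in all wild-type, Dicer SOM/SOM, RNAi mutant and piRNA mutant libraries and its largest value, 3 counts, in double mutant replicate 1. At this depth no change of Bbc3 could be measured, and the highest limit of detection in a Dicer SOM/SOM library was 0.431 CPM.

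Bcl2l10 (ENSMUSG00000032191.5, chr9:75347758-75351632, plus strand) held 831, 946 and 961 CPM in wild type, 796 to 1038 CPM in Dicer ΔMT/ΔMT and 752 to 876 CPM in Dicer SOM/SOM. It held 725, 696, 1113 and 660 CPM in controls, 721 and 645 CPM in RNAi mutants and 534 to 877 CPM in double mutants. All mutant groups overlapped their controls. Its 4 log2 fold changes lay between -0.24 and -0.02, and the 95% intervals reached from -0.24 to 0.20 in Dicer ΔMT/ΔMT and from -0.64 to 0.15 in double mutants.

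Mcl1 (ENSMUSG00000038612.16, chr3:95658788-95663176, plus strand) encodes the protective protein on which mouse oocytes depend in the growing follicle. It was at 25.1, 14.1 and 17.5 CPM in wild type, 15.9 to 32.7 CPM in Dicer ΔMT/ΔMT, 19.1 to 28.1 CPM in Dicer SOM/SOM, 14.3 to 33.7 CPM in controls, 23.3 and 25.1 CPM in RNAi mutants and 16.7 to 37.2 CPM in double mutants. The spread within groups covered the differences between them, whose log2 values were 0.03 to 0.32. Bcl2 (ENSMUSG00000057329.7, chr1:106538178-106714274, minus strand), the founding member of the family, was at 1.09 to 2.05 CPM in wild type and 2.27 to 2.76 CPM in Dicer SOM/SOM, without overlap, with a log2 fold change of 0.65 ± 0.34 (adjusted p = 0.175). In the other mutant groups Bcl2 overlapped its controls, with log2 fold changes of 0.06 to 0.34. Of its exon bases, 12.2% lie opposite D630008O14Rik, and the counts ignored strand.

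In counts, 9 of the 10 genes passed the filter on low values in each run, all but Bbc3. In Dicer ΔMT/ΔMT against wild type 2 of 9 were called, Pmaip1 and Trp63, both higher, where 15.4% of all genes were called in either direction and 8.06% were higher. For Dicer SOM/SOM it was 2 of 9, Pmaip1 and Atm, both higher, beside 28.6% and 14.5%. For Dicer SOM/SOM against Dicer ΔMT/ΔMT it was 1 of 9, Atm, higher, beside 7.35% and 4.03%. RNAi mutants had 2 of 9, Pmaip1 and Trp63, both higher, beside 10.7% and 7.07%, and double mutants had the same 2 of 9, both higher, beside 21.2% and 12.3%. In Dicer SOM/SOM the 22.22% of the 9 genes that were called lies below the share of all genes, and in double mutants it is about equal to it. The counts are not read as a result about the 10 genes as a group. The groups did not overlap in 2 of 9 genes in Dicer ΔMT/ΔMT, where 33.5% of all genes did not, in 5 of 9 in Dicer SOM/SOM (41.4% of all genes), in 1 of 9 between the 2 Dicer alleles (21.5%), in 2 of 9 in RNAi mutants (34.8%) and in 2 of 9 in double mutants (23.3%). The median log2 fold change of the 9 genes was 0.28, 0.49, 0.06 and 0.06 in Dicer ΔMT/ΔMT, Dicer SOM/SOM, RNAi and double mutants, beside 0.01, 0.02, -0.02 and -0.00 over all genes tested.

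Double against RNAi mutants gave 0 called genes of 9 by edgeR, 0 at an unadjusted p under 0.05 and 0 by DESeq2, where 0.314% of all genes were called and 4.78% passed unadjusted. Their log2 differences lay between -0.61 and 0.32 with 95% intervals of ± 0.32 to ± 1.16. The double mutants lay above both RNAi mutants in Atm alone, and 14.4% of all genes did not overlap there. Older against younger females, adjusted for genotype, gave 0 of 9 by edgeR, 1 at an unadjusted p under 0.05, Chek1, and 0 by DESeq2, with 0.0143% of all genes called and 6.66% passing unadjusted. Among controls and double mutants alone, Chek1 was also the 1 gene of 9 without overlap between older and younger females, beside 2.03% of all genes. Bax showed the largest age difference in size, -0.82 ± 0.38 (adjusted p = 0.747).

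Other genes of the same pathways were taken from lists of 18 further BCL2-family genes, 30 caspases and caspase regulators, 32 DNA damage checkpoint genes and 26 genes of the p53 family and its targets. Of 13 tested BCL2-family genes, 1 was lower in each of Dicer ΔMT/ΔMT, RNAi and double mutants with none higher, and in Dicer SOM/SOM 1 was lower and 2 were higher. The share called was 7.69%, 23.1%, 7.69% and 7.69% in Dicer ΔMT/ΔMT, Dicer SOM/SOM, RNAi and double mutants, below the 15.4%, 28.6%, 10.7% and 21.2% of all genes. The gene that was lower in all 4 was Bcl2l11, which encodes BIM, a BH3-only activator of apoptosis.

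Bcl2l11 fell from 72.3 ± 8.52 CPM in wild type to 46.7 ± 1.45 CPM in Dicer ΔMT/ΔMT (log2 -0.63 ± 0.10, adjusted p = 0.00174) and 39.0 ± 4.22 CPM in Dicer SOM/SOM (-0.90 ± 0.11, adjusted p = 1.52e-04). From 64.0 ± 5.73 CPM in controls it fell to 35.5 ± 12.7 CPM in RNAi (-0.85 ± 0.22, adjusted p = 0.0211) and 28.3 ± 4.42 CPM in double mutants (-1.18 ± 0.17, adjusted p = 2.47e-04). The BH3-only genes Pmaip1 and Bcl2l11 thus moved in opposite directions in the same oocytes. In Dicer SOM/SOM, Bad (0.98 ± 0.31, adjusted p = 0.0378) and Bnip3l (0.27 ± 0.08, adjusted p = 0.0289) were the 2 that were higher. Bad, a BH3-only gene, was at 0.30 in Dicer ΔMT/ΔMT (adjusted p = 0.529) and on the other side of 0 in the paired-end run, at -0.51 in RNAi (adjusted p = 0.612) and -1.06 in double mutants (adjusted p = 0.0894), and the difference between the runs was 1.47 ± 0.61 (adjusted p = 0.497). Bnip3l was at 0.23, 0.18 and 0.16 in Dicer ΔMT/ΔMT, RNAi and double mutants, short of the threshold. The median log2 fold change of the 13 was -0.24, 0.27, -0.21 and -0.10 in Dicer ΔMT/ΔMT, Dicer SOM/SOM, RNAi and double mutants.

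Of 25 tested caspases and regulators, 2 were higher and 2 lower in Dicer ΔMT/ΔMT, while Dicer SOM/SOM had 3 and 3, with 2 and 1 in RNAi mutants and 2 and 2 in double mutants, with medians of -0.07 to 0.01. The share called was 16%, 24%, 12% and 16%, beside 15.4%, 28.6%, 10.7% and 21.2% of all genes. Apaf1, which encodes the core of the apoptosome, fell in all 4 groups: from 9.07 ± 1.11 CPM in wild type to 4.54 ± 0.628 CPM in Dicer ΔMT/ΔMT (log2 -1.003 ± 0.20, adjusted p = 0.00689) and 3.86 ± 1.46 CPM in Dicer SOM/SOM (-1.14, adjusted p = 0.00343). In the paired-end run it fell from 10.0 ± 1.30 CPM in controls to 4.31 ± 1.81 CPM in RNAi (-1.21, adjusted p = 0.0115) and 4.64 ± 0.811 CPM in double mutants (-1.11, adjusted p = 0.00214).

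The other genes of this list that met the rule for naming were Fadd, Cflar, Casp8, Pidd1 and Birc2. Fadd, an adaptor of death receptors, rose in Dicer ΔMT/ΔMT (0.61, adjusted p = 0.00424), RNAi (0.72, adjusted p = 0.0449) and double mutants (0.65, adjusted p = 0.0178) and was at 0.26 in Dicer SOM/SOM (adjusted p = 0.130). Cflar, which encodes the caspase-8 inhibitor c-FLIP, rose in Dicer SOM/SOM (0.77, adjusted p = 0.00264), RNAi (0.68, adjusted p = 0.0255) and double mutants (0.72, adjusted p = 0.00365) and was at 0.30 in Dicer ΔMT/ΔMT (adjusted p = 0.166). Casp8, an initiator caspase, fell in Dicer SOM/SOM (-0.70 ± 0.14, adjusted p = 0.00442) and was at -0.02, -0.02 and -0.27 in Dicer ΔMT/ΔMT, RNAi and double mutants, short of the threshold. Its effect was not shown to differ between the runs (-0.71 ± 0.25, adjusted p = 0.417). Pidd1, a scaffold that activates caspase-2, fell in Dicer ΔMT/ΔMT (-1.73 ± 0.45, adjusted p = 0.0253) and was at -1.35, -0.56 and -0.34 in Dicer SOM/SOM, RNAi and double mutants, short of the threshold. Its levels were low, at 1.67 ± 0.262 CPM in wild type and 0.491 ± 0.297 CPM in Dicer ΔMT/ΔMT. The paired-end controls held only 0.300 to 0.931 CPM, which leaves little room to see a fall there. Birc2, a ubiquitin ligase of the inhibitor of apoptosis family, rose in Dicer SOM/SOM (0.64, adjusted p = 0.00242) and was at -0.15, -0.45 and -0.06 in Dicer ΔMT/ΔMT, RNAi and double mutants, short of the threshold. For Birc2, too, the difference between the runs did not pass the test (1.06 ± 0.37, adjusted p = 0.417).

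**Figure D5:**
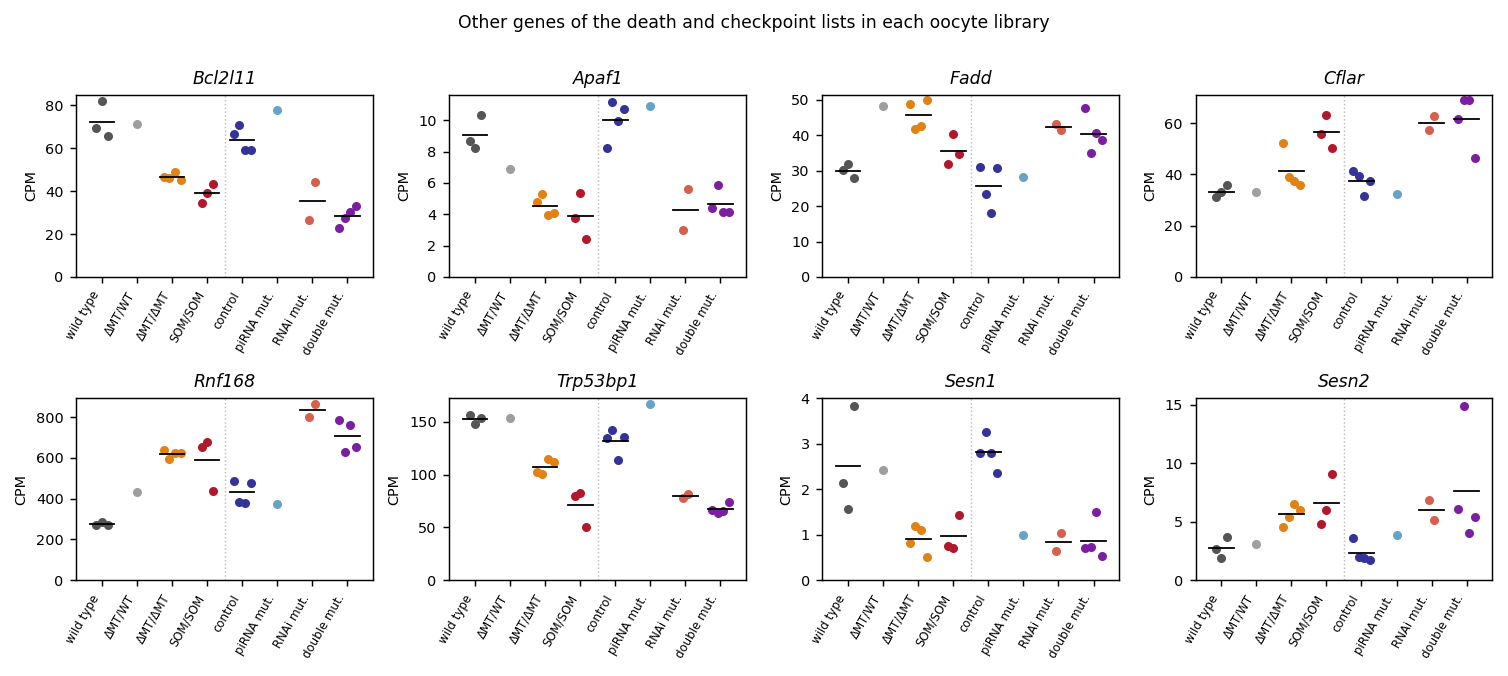
CPM of 8 further genes of these pathways in all 22 libraries, drawn as in the plot of the 10 genes. Bcl2l11, Apaf1, Trp53bp1 and Sesn1 have lower means in all 4 groups of Dicer mutants than in their controls, and Fadd, Cflar, Rnf168 and Sesn2 higher ones.

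All 32 checkpoint genes were tested, and 4 were higher and 1 lower in Dicer ΔMT/ΔMT, while Dicer SOM/SOM had 5 and 4, with 2 and 1 in RNAi and 2 and 5 in double mutants, with medians of -0.05 to -0.00. The share called was 15.6%, 28.1%, 9.38% and 21.9% in that order, beside 15.4%, 28.6%, 10.7% and 21.2% of all genes. H2afx, the histone that ATM phosphorylates at breaks, was higher in all 4 groups, by 0.88 (adjusted p = 0.0475), 1.37 (adjusted p = 0.00462), 0.73 (adjusted p = 0.0429) and 0.70 (adjusted p = 0.0126) in the same order. Its Dicer SOM/SOM libraries were at 230, 249 and 579 CPM, and the highest is replicate 3, the library with the fewest counts. The other replicates lay within or close to the 237 to 279 CPM of Dicer ΔMT/ΔMT. Rnf168, a ubiquitin ligase of the same response and the 1 gene of these lists that is on the siRNA target list, rose by 1.16 (adjusted p = 2.23e-04), 1.10 (adjusted p = 1.68e-04), 0.95 (adjusted p = 6.80e-04) and 0.72 (adjusted p = 8.31e-04). That list was drawn from antisense small RNAs of oocytes.

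Trp53bp1, which encodes the repair factor 53BP1, fell by 0.50 in Dicer ΔMT/ΔMT (adjusted p = 0.0309), by 1.08 in Dicer SOM/SOM (adjusted p = 3.63e-04), by 0.72 in RNAi (adjusted p = 0.00415) and by 0.97 in double mutants (adjusted p = 3.71e-05) on the log2 scale. Mdc1, a scaffold for ATM, was higher in Dicer ΔMT/ΔMT (0.78, adjusted p = 3.88e-04) and Dicer SOM/SOM (0.77, adjusted p = 2.65e-04) and at 0.64 in both paired-end groups, short of the threshold (adjusted p = 0.169 and 0.0634). Etaa1, an activator of the kinase ATR, fell in Dicer SOM/SOM (-0.40, adjusted p = 0.0488) and double mutants (-0.77, adjusted p = 0.00721) and was at -0.01 and -0.62 in Dicer ΔMT/ΔMT and RNAi mutants, short of the threshold. Hormad1, a meiotic chromosome axis gene, rose in Dicer SOM/SOM from 0.203 to 1.28 CPM (2.32 ± 0.66, adjusted p = 0.0226) and was at 1.66, 1.55 and 1.44 in Dicer ΔMT/ΔMT, RNAi and double mutants, short of the threshold. Its 3 Dicer SOM/SOM libraries were at 0.531, 0.436 and 2.88 CPM, and the highest is replicate 3, the library with the fewest counts.

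Of 23 tested genes of the p53 family and its targets, 3 were higher and 3 lower in Dicer ΔMT/ΔMT, while Dicer SOM/SOM had 3 and 5, with 0 and 2 in RNAi mutants and 4 and 4 in double mutants, with medians of -0.01 to 0.05. The share called was 26.1%, 34.8%, 8.70% and 34.8%, beside 15.4%, 28.6%, 10.7% and 21.2% of all genes. Sesn1 fell in all 4 groups, with log2 fold changes of -1.49 (adjusted p = 0.0177), -1.57 (adjusted p = 0.0186), -1.72 (adjusted p = 0.0193) and -1.70 (adjusted p = 0.00217) in the same order. Its relative Sesn2 rose by 1.02 (adjusted p = 0.0193), 1.20 (adjusted p = 0.00746) and 1.73 (adjusted p = 0.00538) in Dicer ΔMT/ΔMT, Dicer SOM/SOM and double mutants, and was at 1.38 in RNAi mutants (adjusted p = 0.06845).

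Ccng1, another p53 target, rose by 0.81 (adjusted p = 4.93e-04), 0.98 (adjusted p = 9.21e-05) and 0.85 (adjusted p = 0.00283) in Dicer ΔMT/ΔMT, Dicer SOM/SOM and double mutants and was at 0.34 in RNAi mutants (adjusted p = 0.359). Trp53inp1, also a p53 target, fell in all 4 groups, with log2 fold changes of -0.59 (adjusted p = 0.0159), -0.48 (adjusted p = 0.0344), -0.88 (adjusted p = 0.0142) and -0.75 (adjusted p = 0.00476) in Dicer ΔMT/ΔMT, Dicer SOM/SOM, RNAi and double mutants. Gadd45a, a damage-response gene, rose by 0.69 (adjusted p = 0.0348), 0.87 (adjusted p = 0.0113) and 0.99 (adjusted p = 0.00782) in Dicer ΔMT/ΔMT, Dicer SOM/SOM and double mutants and was at 0.84 in RNAi mutants (adjusted p = 0.0758).

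Trp73, which encodes p73, the relative of p63, fell in Dicer SOM/SOM (-0.94, adjusted p = 0.00125) and double mutants (-0.91, adjusted p = 0.0221) and was at -0.37 in Dicer ΔMT/ΔMT (adjusted p = 0.0984) and -0.79 in RNAi mutants (adjusted p = 0.153). Rrm2b, a p53-induced ribonucleotide reductase subunit, fell in Dicer SOM/SOM (-0.63, adjusted p = 4.96e-04) and double mutants (-0.49, adjusted p = 0.00545) and was at -0.23 and -0.39 in Dicer ΔMT/ΔMT and RNAi mutants, short of the threshold. In double against RNAi mutants, 0 genes of these 4 lists were called.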

How the data were processed

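RNA-seq libraries of pooled GV oocytes were sequenced in a single-end and a paired-end run. Per the methods, the authors aligned reads to mm10 with STAR 2.5.3a and counted them without strand on GENCODE genes with featureCounts, dividing reads that map to several places or genes, so that the deposited values are estimated counts that need not be whole (54.6% of the positive values are not). Here they were rounded. Each run was fitted alone with edgeR 4.0.16 (R 4.3.3; quasi-likelihood F test, TMM scaling, filterByExpr with a minimum count of 10 and total of 15, Benjamini-Hochberg adjustment over all genes, adjusted p under 0.05). The single-end fit left out the 1 Dicer ΔMT/WT library. DESeq2 1.42.0, other scalings and filters, age, Gm42418 and left-out libraries were alternatives, and the fit was tested on simulated data. Intervals reflect the spread between libraries as estimated in the fit, and limits of detection cover counting only. Positions and exon lengths of the 10 genes are those of the deposited counts, made on GENCODE M15. The 3′ UTRs and the positions of Hykk and Pknox2 are from GENCODE M21. The 10 genes and the lists were chosen with earlier results of these data known. Of each pathway list and comparison, at most 3 called genes with the largest fold change, a mean of at least 1 CPM in 1 group and no overlap were named, and for likeness the 3 genes with the highest Pearson r.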

Additional observations from a re-analysis of the deposited data

Results flagged for a closer look

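Of 30 groups of 4 libraries or more and genes checked for a library apart from the rest, 4 stood out. The rule used flags about 1 in 20 by chance where values are normally distributed, which was not checked here. Atm was 52.52 CPM in control replicate 2 against 19.9 to 23.0 CPM in the other controls. Atm was 30.64 CPM in double mutant replicate 2 against 25.7 to 26.3 CPM in the other double mutants. Bcl2l10 was 1113 CPM in control replicate 3 against 660 to 725 CPM in the other controls. Bbc3 was 0.08084 CPM, from 3 counts, in double mutant replicate 1 and 0 in the other double mutants. A lone library above 0 is always flagged, so that the rate does not apply to Bbc3. Bax was 3.1724 CPM in the piRNA mutant library, which entered no comparison, against 1.03 to 2.22 CPM in the controls.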

How the results depend on the processing

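Pmaip1 in the 4 mutant groups and Atm in Dicer SOM/SOM kept their calls under all alternatives and left-out libraries that were run. Of 1395 refits of the 9 genes, 1285 kept direction and side of the threshold, 24 lost a call, 7 gained one and 79 changed sign, all of the latter in results that had not passed. The 2 calls in Dicer ΔMT/ΔMT became 1 (Trp63 lost) with DESeq2's size factors, with no filter and with the replicate block. The 2 calls in RNAi mutants became 1 (Trp63 lost) with those size factors, no filter, a term for age, younger females and a term for Gm42418. In double mutants 2 became 1 among younger females, and in Dicer SOM/SOM 2 became 4 with a mean of at least 1 CPM, adding Trp63 and Chek1. Leaving out 1 library gave 1 to 2 calls in Dicer ΔMT/ΔMT and in RNAi mutants, 2 to 3 in Dicer SOM/SOM, and 2 in double mutants. The cause was not tested.

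Correlations of deviations between libraries with the same number in their labels were -0.03 to 0.05 (median 0.01) single-end and -0.07 to 0.18 (median 0.01) paired-end, and between other libraries -0.08 to 0.10 and -0.18 to 0.11, so not every pair deviated together and the numbers were not taken as pairs. Under the replicate block Chek1 passed in Dicer SOM/SOM (-0.38, adjusted p = 0.0188) and was 0.0115 in Dicer ΔMT/ΔMT. Scaling by library size alone moved the median of all genes by at most about 0.1.

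Changes of sign (log2) were as follows. With library size alone, Bcl2l10 was 0.0124 in Dicer ΔMT/ΔMT and 0.0082 in double against RNAi mutants, and Trp63 with age was -0.0162. With a mean of at least 1 CPM Bcl2l10 was 7e-04 in double against RNAi mutants, and among controls and double mutants alone Trp63 with age was -0.0016. With a term for age, Chek1 was -0.11 and Mcl1 -0.0692 in RNAi mutants, and Bcl2l10 0.11 in double against RNAi mutants. Among younger females, RNAi mutants gave Chek1 -0.0539, Chek2 -0.0455, Atm 0.0234, Bcl2 -0.18 and Mcl1 -0.31, double mutants Chek2 -0.40, Atm 0.30, Bcl2 -0.98 and Mcl1 -0.14, and double against RNAi mutants Chek1 0.0384 and Bcl2l10 0.10. With a term for Gm42418, RNAi mutants gave Bax 0.15, Mcl1 -0.0937 and Bcl2l10 0.0119, and double against RNAi mutants Trp63 0.0655 and Bax -0.34.

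Leaving out 1 library at a time changed a sign within these ranges. They were, in Dicer ΔMT/ΔMT, Chek2 -0.37 to 0.12, Bcl2l10 -0.0845 to 0.0356 and Chek1 -0.12 to 0.0167. In Dicer SOM/SOM against Dicer ΔMT/ΔMT they were Trp63 -0.0846 to 0.0243, Pmaip1 -0.38 to 0.19 and Mcl1 -0.14 to 0.25. Between runs they were Pmaip1 -0.88 to 0.051, Chek2 -0.23 to 0.41 and Bcl2l10 -0.16 to 0.18. In double mutants they were Bax -0.63 to 0.20, Bcl2 -0.15 to 0.29, Chek2 -0.0117 to 0.53 and Atm -0.26 to 0.31. In double against RNAi mutants they were Bcl2l10 -0.16 to 0.0795, Trp63 -0.0992 to 0.0211, Bcl2 -0.51 to 0.38, Chek2 -0.33 to 3e-04 and Bax -0.30 to 0.49. With age they were Trp63 -0.0772 to 0.0952, Pmaip1 -0.56 to 0.40, Bcl2 -0.13 to 0.42 and Chek2 -0.57 to 0.0349. In RNAi mutants they were Bcl2 -0.32 to 0.57, Chek1 -0.0363 to 0.14 and Mcl1 -0.15 to 0.25. Depth limits Bbc3, which could not be tested, and Dicer SOM/SOM replicate 3, with the fewest counts.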
